A study of Mus musculus with 3 samples.

Results

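S-phase Sertoli cells are Sertoli cells of the neonatal mouse testis whose transcripts include those of DNA replication, and 679 of 6164 gated Sertoli cells, in 14422 cells in all, met the definition. A cell was gated as a Sertoli cell on its unique molecular identifiers (UMIs, one per captured RNA molecule): at least 3 of Amh, Sox9, Cldn11 and Inha together, at most 2 of Col1a1, Col1a2, Col3a1 and Dcn, at most 5 of Cyp11a1, Cyp17a1 and Hsd3b1, and at most 1 of Ddx4 and Dazl. It was placed in S phase when it had at least 3 UMIs of Rrm2, Tk1, Clspn and Tyms together and fewer than 4 of Ube2c, Cenpf, Plk1 and Cenpa. The comparison was with the 1876 gated cells that had 0 UMIs of both cycle sums, called non-cycling here. The 1753 gated cells with at least 4 UMIs of the mitotic sum are called mitotic, whatever their S-phase sum, and the remaining 1856 lie between.

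The cells came from testes of males at postnatal day 3, dissected at 3.5 days per the protocol, on a background mixed of B6(Cg)-Tyrc-2J/J and FVB/NJ. The genotypes were Cdk2-Y15S (homozygous for the YS allele), Cdk2-HET (heterozygous) and Cdk2-WT (wild type), with 1 library each and the number of animals not stated. No tissue-restricted driver is named in the labels, so the genotype is taken as that of the whole animal. Testes were stripped of the capsule and digested with trypsin, EDTA and DNase I, and 3-prime ends of polyadenylated RNA were counted with 10x Genomics chemistry.

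Sertoli cells are the somatic cells that surround and nourish germ cells in the seminiferous cords. They divide in fetal and neonatal life and stop before puberty, and their final number limits how many germ cells the adult testis can carry. Entry into S phase runs through cyclin D kinases, release of E2F factors from the retinoblastoma family, and CDK2 with cyclin E and then cyclin A. CDK2 is held inactive by phosphorylation of the tyrosine that Y15S replaces with serine, a mark set by WEE1 and removed by CDC25 phosphatases.

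The libraries held 4403 cells and 28651691 UMIs in Cdk2-Y15S, 4958 and 32025077 in Cdk2-HET, and 5061 and 30624473 in Cdk2-WT. S-phase Sertoli cells numbered 159 in Cdk2-Y15S, 230 in Cdk2-HET and 290 in Cdk2-WT, and their summed UMIs came to 1174431, 1568642 and 2112464. Their median depth of 7193, 7059 and 7363.5 UMIs per cell was above that of the non-cycling cells, at 5520, 5625.5 and 5549, and the median mitochondrial share was 6.87%, 6.17% and 6.61% in S-phase cells against 6.69%, 5.85% and 6.22%. Of 87 barcode sequences found in more than 1 library, 6 included an S-phase Sertoli cell, and 0 of them were S-phase Sertoli cells in 2 libraries. A doublet caller marked 0 of the 679 cells, though 1 Cdk2-WT cell among them held 1354 UMIs of 5 neutrophil genes. None of the 141 cells that the authors listed as germ cells was among the 679.

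The Sertoli label was set beside markers that the gate did not use. The gate required Sertoli genes and capped stromal, Leydig and germ cell genes. Gaps to the cells outside it are therefore in part set by that choice. Summed over 20 Sertoli markers, S-phase cells had 9143, 9479 and 9251 CPM (UMIs of the gene per 1000000 UMIs of the state) in Cdk2-Y15S, Cdk2-HET and Cdk2-WT, non-cycling cells 9978, 9929 and 10161, and all cells outside the gate 1211. At least 2 of the 20 were found in 679 of 679 S-phase cells, in 99.9% of non-cycling cells and in 60.9% of cells outside the gate. Of these markers only Rhox5 and Fgf9 were near 0, in either state. Markers of stroma, myoid, germ and endothelial cells were below their level outside the gate: the 12 stromal markers summed to 48.5, 42.1 and 35.0 CPM (1265 outside the gate), the 8 myoid markers to 79.2, 65.7 and 63.9 (2740 outside, Cnn1 at 0), the 10 germ cell markers to 42.6, 40.2 and 64.9 (172 outside; Zbtb16, Rhox13 and Gfra1 at 0) and the 8 endothelial markers to 31.5, 27.4 and 25.1 (197 outside; Tie1 and Cldn5 at 0). The 5 pericyte markers summed to 1.70, 1.27 and 0.947 CPM (48.2 outside) and the 8 macrophage markers to 5.11, 15.9 and 48.8 (233 outside), where 1 Cdk2-WT cell held 77 UMIs of Lyz2. The 8 fetal Leydig markers summed to 822, 1054 and 1031 CPM, above the 756 outside the gate. Most of their sum was Hsd17b3 and Cyb5a, while Insl3 was at 1.24 CPM over the 3 libraries and Lhcgr at 0. The 5 surface epithelium markers summed to 355, 472 and 562 CPM, also above the 195 outside, nearly all of it Lgals7, with Msln at 0.

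The cells were chosen by the UMIs of 4 genes, whose levels are therefore given as a description. Tyms, which makes thymidylate, was found in 90.6% of the 679 cells, Tk1 (thymidine kinase) in 78.5%, Rrm2 (the regulated subunit of ribonucleotide reductase) in 51.1% and Clspn (the claspin adaptor of the replication checkpoint) in 45.4%. All 4 were found in 113 cells, 3 in 267, 2 in 251 and 1 in 48. The sum was exactly 3 in 180 cells, 4 to 6 in 297, 7 to 10 in 147 and more than 10 in 55, with a highest value of 18. Just outside the threshold, 310 gated cells with fewer than 4 mitotic UMIs had a sum of 2. Tyms stood at 280.1, 352 and 328 CPM in S-phase cells of Cdk2-Y15S, Cdk2-HET and Cdk2-WT, Tk1 at 184, 251 and 265, Rrm2 at 135, 163 and 121 and Clspn at 120.1, 93.7 and 80.5. On GRCm38 these genes are Tyms (chromosome 5, 30058202 to 30073617, minus strand), Tk1 (chromosome 11, 117815526 to 117826092, minus strand), Rrm2 (chromosome 12, 24708241 to 24714146, plus strand) and Clspn (chromosome 4, 126556935 to 126593903, plus strand).

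S-phase Sertoli cells carried higher levels of nearly the whole replication machinery than non-cycling Sertoli cells. Of 18 measured Sertoli markers 0 differed by 2-fold in every library, which is near the low share of all genes given below. A gene was called higher or lower where the ratio of its CPM in S-phase to non-cycling cells was 2-fold or more the same way in each of the 3 libraries. Of 9497 genes with at least 20 UMIs over both states in every library, 289 were called higher (3.04%) and 6 lower (0.0632%). With 1 library left out and the other two required, the lower calls numbered 29 without Cdk2-Y15S, 21 without Cdk2-HET and 23 without Cdk2-WT. The median of the mean log2 ratio over these genes was 0.0016. The states were set apart by cycle genes of the same cells, so the counts below describe the cells and no test was made. Values of 3 libraries are in the order Cdk2-Y15S, Cdk2-HET and Cdk2-WT throughout.

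**Figure D1:**
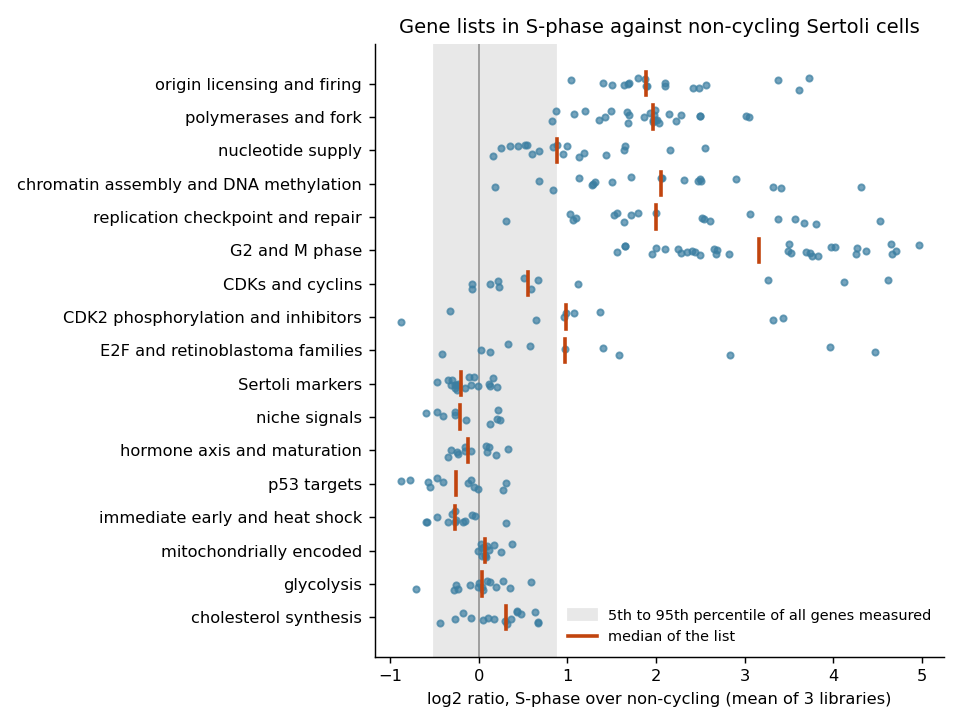
Mean log2 ratio of S-phase over non-cycling Sertoli cells for each measured gene of 17 lists (points, vertically spread for sight), with the median of each list (bar) and the 5th to 95th percentile of all genes measured (grey). The replication lists and the G2 and M list lie to the right of 0, with medians of 1.89 for origin licensing and 3.16 for G2 and M phase, and the Sertoli lists lie around 0.

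Origin licensing and firing genes were nearly all higher, with 17 of the 18 measured of 20 called against 3.04% of all genes, and a median log2 ratio of 1.89. Mcm2 to Mcm7, the subunits of the replicative helicase, were all called. Mcm6 had 175, 196 and 145 CPM in S-phase cells, against 58.3, 61.2 and 46.5 in non-cycling cells (mean log2 ratio 1.64 ± 0.04, SD over 3 libraries). Mcm5 had 84.3, 125 and 107 CPM in S-phase cells, against 22.9, 34.1 and 29.0 in non-cycling cells (1.88 ± 0.01). In both genes every library of the S-phase cells was above every library of the non-cycling cells. The loaders of the helicase stood further apart: Cdc6, which loads it, had 40.02, 44.6 and 31.7 CPM in S-phase cells, against 3.94, 3.65 and 1.48 in non-cycling cells (3.72 ± 0.53). Cdt1, its partner in loading, had 81.7, 106 and 78.6 CPM against 15.4, 15.8 and 18.1. Gmnn (geminin), which blocks Cdt1 once S phase has begun, was as clearly higher, at 251, 285 and 255 CPM against 35.1, 53.3 and 46.5. The firing factors Cdc45 (mean log2 ratio 3.38), Mcm10 (3.61), Ticrr (2.49) and Gins2 (1.89) were called too. Gins4 had a mean of 1.04 and was not called. Orc1 and Gins3 fell below the UMI minimum, and their levels over the 3 libraries were 9.89 and 11.3 CPM in S-phase cells and 0.889 and 2.17 CPM in non-cycling cells.

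E2F factors are known to bind the letters TTCGCGC or TTGGCGC, and the promoters of 3 called genes are shown because they hold these letters. Each line is 250 bases before the start site, 5′ to 3′ on the gene's strand, from the RefSeq table of GRCm38.p6, with matches on either strand in capitals, so that a match on the other strand shows as the reverse complement.
Mcm5 promoter, chr8:75109259-75109508, plus strand: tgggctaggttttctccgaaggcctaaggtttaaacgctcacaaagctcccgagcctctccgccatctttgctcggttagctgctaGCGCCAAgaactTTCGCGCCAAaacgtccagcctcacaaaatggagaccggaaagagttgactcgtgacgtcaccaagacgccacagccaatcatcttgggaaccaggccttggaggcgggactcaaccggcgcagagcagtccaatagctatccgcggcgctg
Mcm6 promoter, chr1:128359706-128359955, minus strand: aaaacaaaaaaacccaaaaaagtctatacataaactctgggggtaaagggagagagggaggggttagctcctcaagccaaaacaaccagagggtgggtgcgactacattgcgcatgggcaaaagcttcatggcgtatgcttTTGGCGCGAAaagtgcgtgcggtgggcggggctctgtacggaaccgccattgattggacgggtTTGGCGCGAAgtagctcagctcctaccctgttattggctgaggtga
Uhrf1 promoter, chr17:56304063-56304312, plus strand: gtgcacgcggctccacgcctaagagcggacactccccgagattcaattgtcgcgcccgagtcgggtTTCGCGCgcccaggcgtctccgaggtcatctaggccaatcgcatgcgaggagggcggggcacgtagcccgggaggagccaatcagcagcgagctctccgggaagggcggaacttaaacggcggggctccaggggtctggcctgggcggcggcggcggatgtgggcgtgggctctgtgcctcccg
Matches on opposite strands overlap in the Mcm5 and Mcm6 windows, so that 1 capital run can hold 2 matches. Among windows of 300 bases, from 250 before to 50 after the start, 1208 of 27025 genes (4.47%) held at least 1 match. The licensing list held it in 6 of its 15 genes with a window (40%), the polymerase and fork list in 7 of 22 (31.8%), and the E2F and retinoblastoma list itself in 6 of 10. Of the 107 genes of the 5 S-phase lists (licensing, polymerases and fork, nucleotide supply, chromatin, checkpoint and repair), 82 had a window and 21 of these (25.6%) a match. The G2 and M list held it in 5 of 29, CDKs and cyclins in 0 of 8, and CDK2 phosphorylation and inhibitors in 1 of 9. The niche list held it in 1 of 16 and the hormone list in 0 of 12. A match is a run of letters and not a bound site.

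Polymerase and fork genes were called higher in 22 of 26, with a median log2 ratio of 1.96. Lig1, the ligase that joins Okazaki fragments, had 215, 199 and 164 CPM in S-phase cells, against 28.3, 35.6 and 38.1 in non-cycling cells (2.50 ± 0.41). Pole, the catalytic subunit of the leading strand polymerase, had 46.8, 47.8 and 34.1 CPM against 5.73, 4.57 and 5.20 (3.01 ± 0.33). Dna2, a nuclease of Okazaki fragment processing, was the highest of the list at 3.05, and Tipin, a fork protection factor, had the most UMIs, at 400.2, 406 and 388 CPM in S-phase cells against 118, 119 and 133 in non-cycling cells. The 4 genes not called were Rfc1 (0.83), Rpa3 (0.87), Pold3 (1.08) and Pold2 (1.19), all above 0 in each library. Rpa1 and Rpa2, the other subunits of the single-strand binding complex, were called at 1.93 and 1.97, so members of 1 complex stood at different ratios.

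Nucleotide supply genes showed smaller ratios than the replisome, with 6 of 19 called and a median of 0.88, though all 19 were above 0 in every library. Among the 6 called were Dck (2.56), Rrm1 (1.65), Dut (1.63), Shmt1 (1.43) and Mthfd2 (1.19). Dut, which destroys dUTP and so keeps uracil out of DNA, had 725, 880.4 and 840.3 CPM in S-phase cells, against 242, 275 and 270.0 in non-cycling cells. Rrm1, the partner of Rrm2, had 86.0, 112 and 98.9 CPM against 36.1, 34.4 and 24.7. The purine synthesis genes Gart (0.16), Paics (0.54) and Impdh2 (0.52) were not called, and nor was Cad (0.60), which opens pyrimidine synthesis.

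Chromatin assembly and DNA methylation genes were called in 16 of the 19 measured of 21, with a median of 2.06. Uhrf1, which brings the maintenance methyltransferase to hemimethylated DNA, had 154, 149 and 108 CPM in S-phase cells, against 17.2, 9.44 and 12.4 in non-cycling cells (3.41 ± 0.48). Dnmt1, that methyltransferase, had 76.6, 81.0 and 81.4 CPM against 24.0, 25.6 and 23.3 (1.71 ± 0.08). The subunits Chaf1a (2.48) and Chaf1b (2.49) of the histone chaperone CAF-1 were called, as were the chaperone Asf1b (3.31) and the histone mRNA-binding protein Slbp (1.14). Asf1a, the close relative of Asf1b (0.19), and both subunits of the FACT complex, Ssrp1 (0.84) and Supt16 (0.68), were not. The histone gene Hist1h2ap stood at 215, 134 and 134 CPM in S-phase cells, against 5.73, 6.70 and 12.1 in non-cycling cells. Histone genes have near-identical copies, and most replication-dependent histone mRNAs end in a stem-loop without a poly(A) tail, so their counts are uncertain.

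Replication checkpoint and repair genes were called in 15 of the 19 measured of 21, with a median of 1.995. Bard1, partner of Brca1, had the highest mean ratio of the list (4.53), and Brca1 stood at 3.67. Exo1, a nuclease of resection and mismatch repair, had 63.0, 53.5 and 54.9 CPM in S-phase cells, against 4.29, 2.74 and 5.20 in non-cycling cells. The checkpoint kinase Chek1 was called (1.995), while Atr, the kinase that activates it, had 31.5, 32.5 and 29.8 CPM in S-phase cells against 29.7, 22.2 and 24.7 in non-cycling cells and was not called (0.31). Msh6 and Rbbp8 had means of 1.09 and 1.03 and were not called, each being under 2-fold in at least 1 library.

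**Figure D2:**
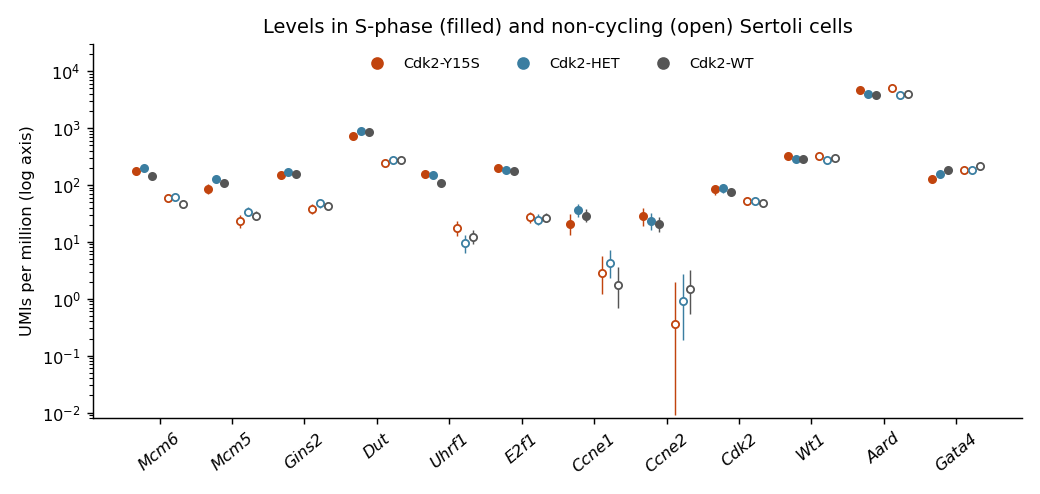
CPM (UMIs per 1000000, log axis) of 12 genes in S-phase (filled) and non-cycling (open) Sertoli cells of Cdk2-Y15S, Cdk2-HET and Cdk2-WT, with 95% Poisson intervals of the counts. The filled points of the cycle genes Mcm6 to Ccne2 lie above the open ones in every library, those of Cdk2 lie less far above, and Wt1, Aard and Gata4 stand close together in both states.

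The cyclins Ccne1, Ccne2 and Ccna2 stood far apart between the states, and Cdk2 itself did not reach 2-fold. Cdk2 (chromosome 10, 128697939 to 128705031, minus strand) had 83.4, 87.3 and 73.8 CPM in S-phase cells, against 52.97, 52.4 and 48.5 in non-cycling cells. Its log2 ratios of 0.66, 0.74 and 0.61 were alike in the 3 libraries and short of 2-fold in each. Ccne1, the cyclin that CDK2 binds first, had 20.4, 35.7 and 28.9 CPM in S-phase cells, against 2.86, 4.26 and 1.73 in non-cycling cells (3.26 ± 0.63). Ccne2 had 28.1, 22.9 and 20.4 CPM against 0.358, 0.913 and 1.48 (4.62 ± 1.04), where the non-cycling counts are 1, 3 and 6 UMIs. Ccna2, the cyclin of later S phase and G2, had 76.6, 78.4 and 80.9 CPM against 3.94, 5.48 and 3.96 (4.12 ± 0.27). Of the 12 measured of 13 CDKs and cyclins only these 3 and Cks1b, a small CDK-binding subunit (1.12), were called. Cdk4 (0.51), Cdk6 (0.22), Cdk7 (-0.08) and Ccnd2 (0.12) were not, and Ccnd2, with the most UMIs of the list, had 1030.3, 1095 and 895 CPM in S-phase cells against 933, 1005 and 832 in non-cycling cells.

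Among 13 regulators of CDK2 phosphorylation and its inhibitors, 9 were measured and 3 were called, with a median of 0.99. Pkmyt1, a membrane kinase that phosphorylates CDK1, had 27.2, 33.1 and 32.7 CPM in S-phase cells, against 2.15, 3.04 and 3.96 in non-cycling cells. Wee1, the kinase of the inhibitory tyrosine, had 87.7, 72.7 and 53.5 CPM against 33.6, 30.8 and 35.4, with log2 ratios of 1.38, 1.24 and 0.60, so it passed 2-fold in Cdk2-Y15S and Cdk2-HET and not in Cdk2-WT. Cdc25a, the phosphatase that removes the mark, had a mean ratio of 0.99 and was not called. Cdkn2c, an inhibitor of CDK4 and CDK6, was called (71.5, 61.8 and 64.4 CPM against 7.87, 5.79 and 4.70), as was Skp2 (1.37), which marks p27 for destruction. Cdkn1a (p21) had 5.96, 14.02 and 9.47 CPM in S-phase cells and 12.9, 20.4 and 20.5 in non-cycling cells, lower in each library but not by 2-fold in each (-0.88).

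In the E2F and retinoblastoma families, 5 of 11 measured were called: the activators E2f1, E2f2 and E2f3, the repressor E2f7, and Rbl1 (p107). E2f1 had 201, 183 and 175 CPM in S-phase cells, against 26.8, 24.7 and 26.7 in non-cycling cells (2.83 ± 0.11). E2f2 (3.97), E2f7 (4.47), E2f3 (1.59) and Rbl1 (1.40) were the others. E2f8, another repressor, was below the UMI minimum, at 15.3, 11.5 and 15.6 CPM in S-phase cells against 0.358, 0.304 and 0 in non-cycling cells. E2f4 (0.12), E2f5 (-0.42), E2f6 (0.58), Rb1 (0.98) and Rbl2 (0.03) were not called.

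The S-phase cells were also set beside the mitotic Sertoli cells. Of 9873 genes with enough UMIs, 88 (0.891%) were called higher in S-phase than in mitotic cells and 101 (1.02%) lower. Licensing genes were higher in 14 of 20, with a median of 1.33. Cdc6 stood at 40.02, 44.6 and 31.7 CPM in S-phase cells, against 3.77, 3.45 and 3.41 in mitotic cells. Dbf4, the activator of the firing kinase Cdc7, went the other way, at 59.6, 47.8 and 51.6 CPM against 130.5, 131 and 137. Polymerase and fork genes were higher in 10 of 26, checkpoint and repair genes in 6 of 20, chromatin genes in 5 of 21 and nucleotide genes in 3 of 19. E2f1 and E2f2 were higher too (mean log2 ratios 2.45 and 2.06), and the cyclins split, with Ccne1 (2.08) and Ccne2 (2.32) higher and Ccna2 (-1.45) lower in S-phase cells. In all, 59 of 9420 genes measured in both comparisons were called higher than in non-cycling and than in mitotic cells. Of the 59, 34 belong to the 5 S-phase lists, which hold 107 genes. Only the S-phase cells had to have at least 3 UMIs of Rrm2, Tk1, Clspn and Tyms. The place of replication genes among the 59 is thus in part set by the choice.

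G2 and M genes showed both sides of this comparison. All 32 were called higher in S-phase than in non-cycling cells, with a median of 3.16, and 26 of 32 were called lower than in mitotic cells. Non-cycling cells were chosen with 0 UMIs of the mitotic sum, mitotic cells with at least 4 and S-phase cells with fewer than 4, so both sides are in part set by the choice. When S-phase cells were held to a mitotic sum of 0 as well, the log2 ratio in the library nearest 0 was below 2-fold for Ect2 (0.64), Cdc20 (0.78), Ckap2 (0.17) and Cks2 (0.97), and for Ccnb2 it was -0.49. Top2a, the topoisomerase that untangles copied DNA, had 374, 240.3 and 187 CPM in S-phase cells, against 8.95, 8.53 and 6.93 in non-cycling and 507, 421 and 390.1 in mitotic cells. Cdk1 had 119, 149 and 152 CPM in S-phase cells, against 20.04, 29.5 and 28.2 in non-cycling and 245, 324 and 321 in mitotic cells. Ccnb1, its mitotic cyclin, had 15.3, 12.1 and 14.2 CPM in S-phase cells, against 5.01, 1.83 and 2.47 in non-cycling and 137, 158 and 137 in mitotic cells. Top2a and Cdk1 were thus between the other states, and Ccnb1 was nearer to the non-cycling than to the mitotic level.

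The S-phase cells were also split by the mitotic sum of the rule, which was 1 to 3 in 369 cells and 0 in 310. Because that sum makes the split, higher G2 and M genes in cells with 1 to 3 are in part set by the choice. In cells with 1 to 3, the 32 G2 and M genes together had 2614, 2455 and 2824 CPM, against 1586, 1595 and 1265 in cells with 0. Ccna2 had 88.1, 88.1 and 109.7 CPM in cells with 1 to 3, against 59.5, 65.1 and 48.4 in cells with 0, and Hist1h2ap had 296, 154 and 195 against 95.6, 106 and 65.6. Ccne1 had 22.7, 39.7 and 35.7 CPM in cells with 1 to 3, against 17.0, 30.3 and 21.2 in cells with 0, and Ccne2 had 29.8, 29.7 and 25.9 against 25.5, 13.6 and 14.1. The polymerase and fork genes together had 2311, 2427 and 2299 CPM in cells with 1 to 3, against 2077, 2312 and 2170.1 in cells with 0. All of these are higher in each library, but Ccne1 and Ccne2 rest on few UMIs. In Cdk2-Y15S, Ccne1 had 16 UMIs in cells with 1 to 3 and 8 in cells with 0, and Ccne2 had 21 and 12. In Cdk2-HET these were 36 and 20, and 27 and 9. In Cdk2-WT they were 40 and 21, and 29 and 14. No interval of these gaps was taken. The licensing genes together had 1559, 1806 and 1527 CPM in cells with 1 to 3, against 1741, 1939.6 and 1705 in cells with 0, lower in each library. Mcm6 had 159, 191 and 119 CPM against 199.6, 203 and 175, also lower in each. Cdc6 had 31.3, 45.2 and 23.2 CPM against 53.1, 43.9 and 41.4, which is lower in Cdk2-Y15S and Cdk2-WT and slightly higher in Cdk2-HET. The median depth was 7321.5, 7210.5 and 7697 UMIs in cells with 1 to 3 and 6990, 6824 and 7015 in cells with 0, and its part in these differences was not tested.

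More replication genes were detected per cell in S-phase cells than in the other states. After each cell was thinned to 3000 UMIs, S-phase cells had a median of 9, 10 and 9 of the 46 licensing and fork genes, mitotic cells 4, 5 and 5, and non-cycling cells 2, 3 and 3. Thinning left out 8, 27 and 20 shallower S-phase cells, and without thinning the medians were 18, 18 and 18 in S-phase cells, 10, 10 and 10 in mitotic cells and 4, 5 and 4 in non-cycling cells. The interquartile range of the S-phase cells was 7 to 12 genes in Cdk2-Y15S and Cdk2-WT and 8 to 12 in Cdk2-HET. None of the 46 genes was used to choose the cells. The states were set by Rrm2, Tk1, Clspn and Tyms, which also serve replication, so the higher number is in part set by the choice.

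**Figure D3:**
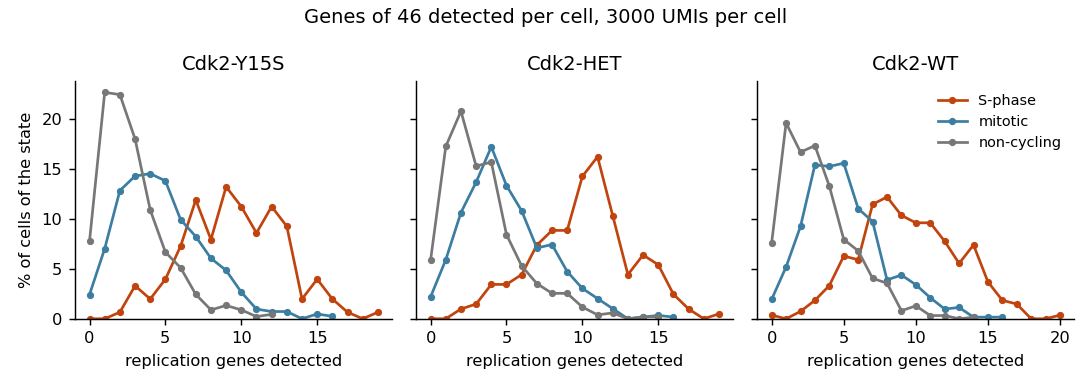
Share of cells (%) by the number of 46 licensing and fork genes detected, for S-phase, mitotic and non-cycling Sertoli cells of each library, every cell thinned to 3000 UMIs. The S-phase line peaks to the right of the mitotic and non-cycling lines in all 3 libraries, and the lines overlap over most of the range. Mitotic cells reach 16 genes in each library, and non-cycling cells reach 12 in Cdk2-Y15S, 15 in Cdk2-HET and 14 in Cdk2-WT.

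No Sertoli marker differed by 2-fold in every library, where few genes of any kind did. Of all genes measured, 3.04% were called higher and 0.0632% lower than in non-cycling cells, and 0.891% and 1.02% than in mitotic cells. Near these shares, 0 of the 18 measured Sertoli markers were called in either comparison. Their median log2 ratio was -0.20 over non-cycling and 0.0069 over mitotic cells, and 9 of 18 were below 0 in every library over non-cycling cells, against 24.9% of all genes measured. Wt1, a transcription factor of Sertoli identity, had 319, 284 and 288 CPM in S-phase cells, against 327, 272 and 302 in non-cycling cells. Gata4, its partner in gonad formation, had 129, 158 and 179.9 CPM against 182, 183 and 213, lower in each library (-0.31). Dmrt1, which keeps the male fate, had a mean ratio of 0.16, and Dhh, the hedgehog ligand, -0.27. Amh, the hormone that removes the female ducts and a gene of the gate, had 480.2, 892 and 816 CPM in S-phase cells and 429, 991 and 902 in non-cycling cells.

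The signals that Sertoli cells send to germ cells and the genes of their hormone axis were likewise not called. Of all genes measured, 3.04% were called higher and 0.0632% lower. Of 17 niche genes 10 were measured, with a median of -0.21. Gdnf, which sustains spermatogonial stem cells, had 17.9, 33.8 and 28.9 CPM in S-phase cells, against 33.3, 38.4 and 37.4 in non-cycling cells, lower in each library by less than 2-fold (-0.47). Kitl, the ligand of the Kit receptor on germ cells, had 151, 115 and 137 CPM against 134, 104 and 129.9 (0.13). Igf1 was the lowest of the list at -0.59, and Pdgfa stood at -0.40. Of 18 hormone and maturation genes 12 were measured, with a median of -0.12. Fshr, the receptor for the hormone that drives Sertoli division, had 31.5, 49.7 and 49.2 CPM in S-phase cells, against 27.9, 43.2 and 51.0 in non-cycling cells (0.11), and Gja1, the gap junction gene of the maturing cell, had -0.32.

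Stress and metabolic lists had no called member, where 3.04% of all genes measured were called higher and 0.0632% lower. Immediate early and heat shock genes had a median of -0.26, with 10 of 13 below 0 in every library, led by Atf3 (-0.60) and Junb (311, 184 and 459 CPM in S-phase cells against 452, 285 and 687 in non-cycling cells). The p53 targets had a median of -0.26, with Cdkn1a lowest. Mitochondrially encoded genes stood at 0.07, glycolysis at 0.03 and cholesterol synthesis at 0.31. Within glycolysis, Aldoa had 569.6, 694 and 620.1 CPM in S-phase cells, against 935, 1079 and 1056 in non-cycling cells, the lowest of its list at -0.71.

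Outside the lists, the 12 genes with the highest mean ratios ran from Neil3 (5.69) to Cep55 (4.01). Neil3, a glycosylase for damaged bases, led with 29.0, 26.1 and 26.5 CPM in S-phase cells, against 0.358, 0.609 and 0.247 in non-cycling cells, though mitotic cells had as much (31.2, 31.4 and 29.9). The gene 2810417H13Rik (Pclaf), which encodes a PCNA-binding factor, had the most UMIs of these genes, at 557, 516 and 479 CPM in S-phase cells against 12.9, 14.01 and 10.4 in non-cycling and 199, 212 and 231 in mitotic cells. Mybl2, a transcription factor of dividing cells, had 58.8, 59.3 and 50.2 CPM against 2.15, 1.83 and 1.24 in non-cycling cells. Lrr1, an adaptor that helps unload the helicase, had 74.9, 87.3 and 76.7 CPM against 3.94, 5.48 and 4.70. The others were the kinesin Kif15 (5.21), the cohesin acetyltransferase Esco2 (4.87), the cohesin protector Cdca5 (4.51), the spindle checkpoint kinase Ttk (4.29), the condensin subunit Ncapg (4.23), Cdca2 (4.17), the kinetochore gene Ska1 (4.10) and Cep55, of the final cut between daughter cells.

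The 6 genes called lower were Hist1h2bc, Alas2, 9630001P10Rik, Satb1, Rangrf and Kdm5b, and most of these calls depended on the choice of cells. With an S-phase sum of at least 2, 1 gene was called lower, and the log2 ratio in the library nearest 0 was -1.25 for Hist1h2bc, -0.69 for Kdm5b, -0.36 for Satb1 and -0.34 for Alas2. With non-cycling cells matched in depth 2 genes were called lower, and that ratio was -0.06 for Alas2, -0.85 for 9630001P10Rik and -0.86 for Rangrf. Hist1h2bc had 34.1, 19.8 and 21.3 CPM in S-phase cells, against 103, 117 and 119 in non-cycling and 611, 427 and 247 in mitotic cells. Against non-cycling cells this is the reverse of Hist1h2ap. Hist1h2ap too was lower in S-phase than in mitotic cells, where it had 317, 226 and 164 CPM. The same limits on histone counts apply. Kdm5b, a histone H3 demethylase, had 63.0, 51.6 and 47.3 CPM against 147, 106 and 122 in non-cycling cells. Alas2, of heme synthesis in red cells, is 1 of 5 erythroid markers, whose sum was 12.8, 10.8 and 8.52 CPM in S-phase cells and 137, 18.6 and 15.6 in non-cycling cells. Hbb-bs, another of them, had 4.26, 5.10 and 6.15 CPM in S-phase cells against 51.5, 4.87 and 6.19 in non-cycling cells, not lower in each library, and the part of red cell RNA was not tested.

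S-phase cells made up 10.2% of gated Sertoli cells in Cdk2-Y15S (159 of 1564, exact 95% binomial interval 8.71 to 11.8), 10.8% in Cdk2-HET (230 of 2138, 9.48 to 12.1) and 11.8% in Cdk2-WT (290 of 2462, 10.5 to 13.1). The intervals overlap and cover counting error only; with 1 library per genotype no test between genotypes can be made. After each cell was thinned to 3000 UMIs, leaving out 120, 238 and 333 shallower cells, the shares were 4.92% (3.86 to 6.16) in Cdk2-Y15S, 7.05% (5.94 to 8.30) in Cdk2-HET and 7.33% (6.26 to 8.52) in Cdk2-WT, where the interval of Cdk2-Y15S ends below that of Cdk2-WT. Thinned to 5000 UMIs, which left out 441, 620 and 784 cells, they were 8.55% (6.98 to 10.3) in Cdk2-Y15S, 9.75% (8.30 to 11.4) in Cdk2-HET and 10.01% (8.62 to 11.5) in Cdk2-WT, and these intervals overlap. Mitotic shares were 28.1% in Cdk2-Y15S, 30.3% in Cdk2-HET and 27.1% in Cdk2-WT, and non-cycling shares 32.3%, 28.3% and 31.2%. The Amh, Sox9, Cldn11 and Inha UMIs that open the gate were fewer per S-phase cell in Cdk2-Y15S (median 16) than in Cdk2-HET (22) and Cdk2-WT (23). Cells outside the gate met the same cycle rule in 5.78% (Cdk2-Y15S), 7.06% (Cdk2-HET) and 11.4% (Cdk2-WT), an order like that of the Sertoli cells. The part of either in the shares was not tested.

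**Figure D4:**
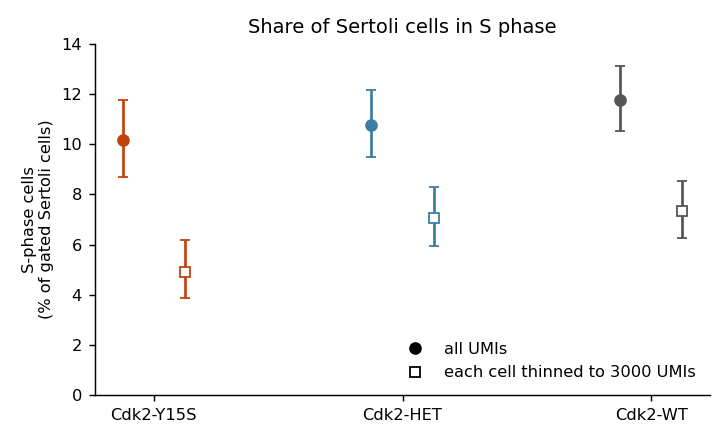
S-phase cells as a share (%) of gated Sertoli cells in each library, from all UMIs (filled circles) and after thinning each cell to 3000 UMIs (open squares), with exact 95% binomial intervals. The shares from all UMIs are 10.2% in Cdk2-Y15S, 10.8% in Cdk2-HET and 11.8% in Cdk2-WT with overlapping intervals, and the thinned share of Cdk2-Y15S lies lowest at 4.92%.

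Replication transcripts summed over all gated Sertoli cells, which needs no cycle rule, were also lowest in Cdk2-Y15S in each of the 5 S-phase lists. The 4 genes of the S-phase sum had 193 CPM (185 to 201) in Cdk2-Y15S, 232 (224 to 240.1) in Cdk2-HET and 238 (230.5 to 246) in Cdk2-WT (95% Poisson intervals). The licensing list had 730.2 CPM (714 to 747) in Cdk2-Y15S, 852 (837 to 868) in Cdk2-HET and 798 (784 to 813) in Cdk2-WT. The polymerase and fork list had 1029 CPM (1009.6 to 1048) in Cdk2-Y15S, 1159.7 (1142 to 1178) in Cdk2-HET and 1185 (1168 to 1202) in Cdk2-WT. The checkpoint and repair list had 505 CPM (491 to 518) in Cdk2-Y15S, 512 (499.9 to 523) in Cdk2-HET and 516 (504 to 527) in Cdk2-WT, with overlapping intervals. The G2 and M list had 2585 CPM (2554 to 2615) in Cdk2-Y15S, 2833 (2805 to 2860.4) in Cdk2-HET and 2546 (2521 to 2571) in Cdk2-WT, lowest in Cdk2-WT. Lists outside replication were also lowest in Cdk2-Y15S. Glycolysis had 2853 CPM in Cdk2-Y15S, 3424 in Cdk2-HET and 3293 in Cdk2-WT, and the niche list 1520, 1963 and 2193. Other lists were not, and mitochondrially encoded genes were highest in Cdk2-Y15S (68472, 60220 and 64339). Differences of this size have no replicate library to be set against.

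Within the S-phase cells, few replication genes were called between genotypes, where few genes of any kind were. The cells of every library were chosen by the same minimum of Rrm2, Tk1, Clspn and Tyms, which also serve replication. Alike levels are therefore in part set by the choice. A gene was called between 2 libraries where its ratio was 2-fold or more and its exact 95% interval lay off 0 on the log2 scale. Of 9308 genes with at least 20 UMIs, 235 were called higher (2.52%) and 131 lower (1.41%) in Cdk2-Y15S than in Cdk2-WT. Centred on the median of all genes these counts were 180 and 168. Of 9475 genes, 103 were higher (1.09%) and 92 lower (0.971%) in Cdk2-HET than in Cdk2-WT, and 83 and 119 when centred. Both comparisons share the Cdk2-WT library. Between Cdk2-Y15S and Cdk2-HET, 156 of 8987 genes were higher (1.74%) and 106 lower (1.18%). Of the 20 licensing genes 0 were called in either, with medians of 0.05 for Cdk2-Y15S and 0.16 for Cdk2-HET over Cdk2-WT. Cdk2 had 83.4 CPM in Cdk2-Y15S, 87.3 in Cdk2-HET and 73.8 in Cdk2-WT, a log2 ratio of 0.18 (-0.20 to 0.55) for Cdk2-Y15S and 0.24 (-0.10 to 0.58) for Cdk2-HET over Cdk2-WT. Of the 26 polymerase and fork genes 1 was called, Pcna, with 29.0 CPM in Cdk2-Y15S, 72.7 in Cdk2-HET and 65.8 in Cdk2-WT. Its near-identical copy Pcna-ps2 had 30.7 CPM in Cdk2-Y15S, 24.2 in Cdk2-HET and 19.4 in Cdk2-WT, so the split of reads between them is uncertain. The sum of both genes was 59.6 CPM in Cdk2-Y15S, 96.9 in Cdk2-HET and 85.2 in Cdk2-WT, which is less than 2-fold between Cdk2-Y15S and Cdk2-WT. Hist1h2ae, of the chromatin list, was the other replication gene called, with 15.3 CPM in Cdk2-Y15S, 19.1 in Cdk2-HET and 38.8 in Cdk2-WT.

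Of the 13 measured immediate early and heat shock genes, 2 were called lower in Cdk2-Y15S than in Cdk2-WT (1.41% of all genes) and 4 in Cdk2-HET than in Cdk2-WT (0.971%). The 13 immediate early and heat shock genes had a median of -0.51 for Cdk2-Y15S over Cdk2-WT, with 12 below 0, and of -0.76 for Cdk2-HET over Cdk2-WT, with 13 below 0. Fos had 359 CPM in Cdk2-Y15S, 270.3 in Cdk2-HET and 746 in Cdk2-WT in S-phase cells, and 417, 309 and 774 in non-cycling cells of the same libraries. The medians of the list in non-cycling cells were -0.40 and -0.71, so non-cycling cells showed the gap too. Ptgds, a prostaglandin synthase of Sertoli cells, was the 1 called Sertoli marker, with 438 CPM in Cdk2-Y15S, 877 in Cdk2-HET and 1099 in Cdk2-WT (log2 ratio -1.33 (-1.47 to -1.19) for Cdk2-Y15S over Cdk2-WT). Phlda3, a p53 target that restrains AKT, had 74.9 CPM in Cdk2-Y15S, 54.8 in Cdk2-HET and 24.6 in Cdk2-WT, with 1.60 (1.10 to 2.13) for Cdk2-Y15S and 1.15 (0.64 to 1.68) for Cdk2-HET over Cdk2-WT. The 12 measured p53 targets had a median of -0.07 for Cdk2-Y15S, and Phlda3 was the 1 called among them.

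Single genes gave the widest gaps between Cdk2-Y15S and Cdk2-WT, and each of those named had a ratio of the same sign in non-cycling Sertoli cells. Gchfr, the feedback regulator of GTP cyclohydrolase, had 127 UMIs in Cdk2-Y15S and 0 in both other libraries, at least 56.5-fold higher than in Cdk2-HET and at least 76.1-fold higher than in Cdk2-WT when each library at 0 is set to 3 counts. Qpct, a glutaminyl cyclase, had 80.04 CPM in Cdk2-Y15S, 58.6 in Cdk2-HET and 10.9 in Cdk2-WT, with 2.85 (2.21 to 3.60) for Cdk2-Y15S and 2.41 (1.76 to 3.16) for Cdk2-HET over Cdk2-WT. Rpl29 had 376 CPM in Cdk2-Y15S, 23.6 in Cdk2-HET and 23.7 in Cdk2-WT, and ribosomal protein genes have processed copies that share reads. Stard9, 4933402E13Rik, Clec12b and Shisa8 were the other high genes. Shisa8 had 162 CPM in Cdk2-Y15S, 51.6 in Cdk2-HET and 56.8 in Cdk2-WT, with a log2 ratio of 1.51 (1.17 to 1.85) in S-phase cells against 2.59 in non-cycling cells. Lower in Cdk2-Y15S were AA467197, with 2.55 CPM in Cdk2-Y15S, 65.02 in Cdk2-HET and 66.3 in Cdk2-WT, Cbln4, with 11.1 CPM in Cdk2-Y15S, 50.4 in Cdk2-HET and 65.3 in Cdk2-WT, and the chemokine Ccl17, with 101 CPM in Cdk2-Y15S, 275 in Cdk2-HET and 429 in Cdk2-WT. Of the 366 genes called for Cdk2-Y15S, 323 had the same sign in non-cycling cells and 110 were also called there. The same shares over all genes measured were not taken, and both states come from the same libraries, so no excess is claimed.

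In Cdk2-HET the named genes beside Qpct, Clec12b and Phlda3 were Sytl4, Plbd1, Cdc42ep5, Sdf2l1 and Aldh3b1 on the high side. Plbd1 had 35.8 CPM in Cdk2-Y15S, 56.1 in Cdk2-HET and 18.5 in Cdk2-WT. On the low side were Rpl21, with 688 CPM in Cdk2-Y15S, 37.0 in Cdk2-HET and 1048 in Cdk2-WT, and Hist1h2ak, with 69.0 CPM in Cdk2-Y15S, 3.82 in Cdk2-HET and 66.3 in Cdk2-WT, both with near-identical copies. Of the 195 genes called for Cdk2-HET, 155 had the same sign in non-cycling cells and 44 were also called there, again without the shares over all genes measured.

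The granule protein genes Ngp, S100a8, S100a9, Camp and BC100530, which mark neutrophils, were among the lowest genes in both comparisons, and 1 cell held nearly all of their UMIs. That Cdk2-WT cell, with 11074 UMIs, held 1354 of the 5 genes and 77 of Lyz2, along with a Sertoli sum of 5 and an S-phase sum of 5. With cells of 10 or more such UMIs left out, the calls were 240 higher and 117 lower for Cdk2-Y15S and 101 higher and 75 lower for Cdk2-HET over Cdk2-WT, and the 288 and 6 calls between S-phase and non-cycling cells differed by 1 from those with it.

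**Figure D5:**
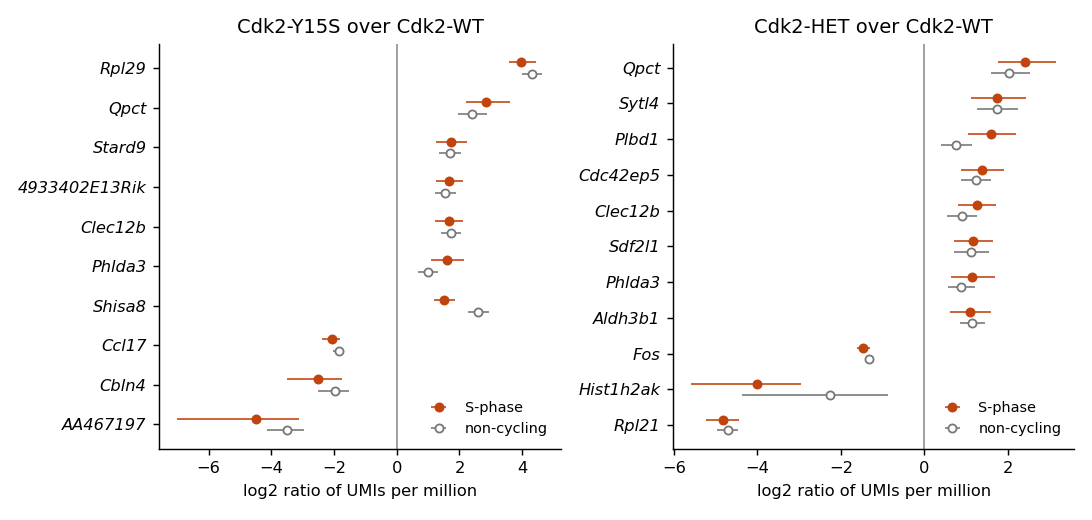
Log2 ratio of CPM for the named genes in S-phase (filled) and non-cycling (open) Sertoli cells, Cdk2-Y15S over Cdk2-WT (left, 10 genes) and Cdk2-HET over Cdk2-WT (right, 11 genes), with exact 95% intervals. Gchfr, with 0 UMIs in Cdk2-WT, and the 5 granule protein genes are not drawn; in most genes shown the filled and open points lie close together, and Shisa8 is further out in non-cycling cells.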

How the data were processed

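Testis cells were counted one by one in 3 libraries, 1 per genotype, on the 10x Genomics 3-prime version 2 kit. The submitters' processing notes name Cell Ranger 2.1.0, the genome build mm10 and Seurat. Their roles, the annotation and the way cells were told from empty droplets were not given in the sources used here. Raw counts were deposited, as the UMIs of 27998 genes in each cell, and the authors' barcodes carry the library. All deposited cells were used, and 0 columns were left out.

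The members, gene lists and call rules were chosen with earlier results of these data known. UMIs were summed per library and state and given as CPM. Log2 ratios were taken after adding 0.5 UMI to both sums, and their 95% intervals are exact conditional binomial ones; levels have exact Poisson and shares Clopper-Pearson intervals. All of them cover counting error only, and nothing says how many animals a library holds. With 1 library per genotype there was no test. The scripts were checked on simulated data. Genes outside the lists were named by a rule: the 12 highest and 12 lowest called between states (5 were available on the low side), and the 8 highest and 8 lowest called between genotypes with at least 100 UMIs. The 21 genes of the rule were left out of the counts of called genes. Doublets were not removed; Scrublet, at an expected rate of 6%, marked 69 cells in Cdk2-Y15S, 94 in Cdk2-HET and 91 in Cdk2-WT (1.57%, 1.90% and 1.80%). Gene positions are from GENCODE M21, which held 27645 of the identifiers, and promoters from the RefSeq table of GRCm38.p6. Python 3.11.15, NumPy 2.4.6, SciPy 1.17.1, pandas 2.3.3, scanpy 1.11.5 and matplotlib 3.10.9 were used. Alternatives covered the cell filter, doublets, the limits of the rule, thinning, depth matching, scaling, fold, UMI minimum and leaving out each library. Some members of the lists are counted with their list and not reported singly here.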

Additional observations from a re-analysis of the deposited data

Results flagged for a closer look

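Aard, Ccl17 and mt-Co1 had log2 ratios of S-phase over non-cycling Sertoli cells with opposite signs, and counting intervals off 0, in 2 of the libraries. Aard, a Sertoli marker, stood at -0.125 in Cdk2-Y15S, 0.048 in Cdk2-HET and -0.079 in Cdk2-WT. The chemokine Ccl17 stood at -0.113 in Cdk2-Y15S, -0.397 in Cdk2-HET and 0.123 in Cdk2-WT. The mitochondrially encoded mt-Co1 stood at -0.060 in Cdk2-Y15S, 0.0017 in Cdk2-HET and 0.034 in Cdk2-WT. The differences between libraries were not tested, and all of these ratios are well under 2-fold.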

How the results depend on the processing

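No paired analysis was possible because each genotype has 1 library, all numbered replicate 1. The share of S-phase cells moved with the limits of the rule, and in each setting it was lowest in Cdk2-Y15S and highest in Cdk2-WT. In Cdk2-Y15S, Cdk2-HET and Cdk2-WT it was 14.1%, 15.9% and 17.3% with an S-phase sum of at least 2, and 5.31%, 6.22% and 6.62% with at least 5. It was 4.28%, 4.68% and 5.81% with a mitotic sum of 0, and 4.92%, 7.05% and 7.33% with cells thinned to 3000 UMIs. Thinned to 5000 UMIs, it was 8.55% in Cdk2-Y15S and 10.01% in Cdk2-WT. Genes called higher in S-phase than in non-cycling cells, 289 as reported, numbered 182 with a mitotic sum of 0, 505 at 1.5-fold, 187 with at least 50 UMIs and 444 with at least 1 UMI. Those called lower, 6 as reported, numbered 1 with an S-phase sum of at least 2, 2 with depth-matched non-cycling cells, 66 at 1.5-fold, 3 with at least 50 UMIs, 36 with at least 1 UMI, and 21 to 29 with each library left out in turn, where calls in 2 libraries sufficed. For Cdk2-Y15S over Cdk2-WT, 613 were higher and 287 lower at 1.5-fold, and 91 and 59 with at least 50 UMIs. For Cdk2-HET over Cdk2-WT the counts were 283 and 197 at 1.5-fold, and 43 and 32 with at least 50 UMIs. Fold and UMI minimum move these counts by construction.

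Ccnb2 turned to -0.49 in its library nearest 0 with a mitotic sum of 0. For Cdk2-Y15S over Cdk2-WT, BC100530, S100a8 and Camp turned to 0.87, 1.23 and 0.24 with a Sertoli sum of at least 6, and to 0.84, 1.20 and 0.21 without cells of 10 or more granule gene UMIs, a setting chosen after seeing the data. For Cdk2-HET over Cdk2-WT, BC100530 and Camp turned to 0.42 and 0.86 in both settings. Both settings leave out the same Cdk2-WT cell. Of the 138 genes named between states, 120 stayed past 2-fold in every library with a mitotic sum of 0, the setting that lost the most. Depth limits genes under 20 UMIs, such as Orc1 and E2f8.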

Other observations

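Cells outside the Sertoli gate that met the same cycle rule, set against such cells with 0 UMIs of both cycle sums, showed the replication lists on the same side. The median log2 ratios there were 2.81 for origin licensing, 2.39 for polymerases and fork, 0.99 for nucleotide supply, 2.53 for chromatin assembly, 2.85 for checkpoint and repair, and 3.95 for G2 and M phase. These cells were set apart by the same cycle sums as the Sertoli cells, so the side of these lists is in part set by the choice. The difference between Sertoli cells and other cells was not tested. Among the cells outside the gate the Sertoli markers had a median of 0.80, so the cell types in the compared states are not the same.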
